A study of Mus musculus with 6 samples.

Results

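The p53 target genes described here are 10 mouse genes, Cdkn1a, Mdm2, Ccng1, Trp53inp1, Sesn1, Btg2, Phlda3, Zmat3, Plk2 and Gdf15. They were taken by gene symbol from the 21899 genes of the expression table, and all 10 were found. The rule that picks them is a list of symbols and uses no measured value, but the list was drawn up with earlier results of these data known. Of the 10 genes, 9 averaged 1 FPKM or more across the tumors and were tested, and each of the 9 had a mean above 1 FPKM in every group. Gdf15 did not reach that level, and its values come from a fit of the table with no filter. FPKM scales a gene's fragment count by the length of its exons and by the library total, to adjust for gene length and sequencing depth. It does not remove other differences in scale between tumors, and some counts below depended on scaling.

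RNA was sequenced from subcutaneous tumors of male C57BL/6 mice inoculated with LLC-luc cells, a luciferase-carrying line of Lewis lung carcinoma, a transplantable mouse lung tumor. The Laser group was irradiated without a photosensitizer, the PC-La group was irradiated after injection of phycocyanin (PC), a light-absorbing protein of cyanobacteria, and the SePC-La group was irradiated after selenium-enriched phycocyanin. The labels give injections into the tumor every 5 days and 10 min of 620 nm light 4 h after injection, while the methods give another wavelength and interval and an injection beneath the tumor, and add that the Laser mice were given saline. Each group had 2 tumors, all 3 groups were irradiated and carried the same single cell line, and unirradiated tumors were not analysed here. The labels do not say more on how the 2 tumors of a group were obtained, so the p-values measure only the spread between these samples.

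The transcription factor p53 is held at a low level in unstressed cells by the ubiquitin ligase Mdm2, which is itself a p53 target and so closes a feedback loop. DNA damage and other stress release p53, which binds pairs of decamer half-sites near its target genes and raises genes for cell cycle arrest, DNA repair, antioxidant defence and apoptosis. Photodynamic treatment produces reactive oxygen species in the irradiated tissue, which is why the level of these genes is of interest in such tumors. Several of the targets also answer to other factors. Gdf15, for example, is known as a target of ATF4 and CHOP in the integrated stress response, and Sesn1 as a target of FoxO factors.

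The promoters of the targets are shown first because the sequence matches to the p53 site differ among them. Promoter windows of 300 bases, 250 before and 50 after the start, were taken from RefSeq on GRCm38.p6 and covered 8 of the 10 genes in 11 windows. Trp53inp1 and Zmat3 were not matched. An exact p53 half-site, the decamer of the p53 consensus with no mismatch, lay in 4 of the 11 windows, those of Cdkn1a, Mdm2, Ccng1 and Sesn1, and in 8.4% of all 32851 windows. The consensus is its own reverse complement, so the search covered both strands. A full site, made of a pair of half-sites that both match the consensus at their 4 middle bases, a spacer of at most 13 bases and at most 3 mismatches, lay in 2 of the 11 windows and in 6.72% of all windows. Stretches of 60 bases around these sites are given below from 5′ to 3′ on the gene's strand, with the matched decamers in capitals.
Cdkn1a: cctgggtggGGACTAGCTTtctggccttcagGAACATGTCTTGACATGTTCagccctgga
Mdm2: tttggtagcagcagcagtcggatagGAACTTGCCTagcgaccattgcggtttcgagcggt
Ccng1: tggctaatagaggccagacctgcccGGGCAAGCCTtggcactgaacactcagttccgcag
Sesn1: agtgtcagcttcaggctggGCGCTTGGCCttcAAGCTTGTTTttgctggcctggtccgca

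The Cdkn1a stretch lies at chr17:29090897-29090956 on the plus strand and ends 23 bases before the upstream of the 2 Cdkn1a starts with a window. It holds 2 overlapping full sites that share the decamer GAACATGTCT, and the pair with no spacer, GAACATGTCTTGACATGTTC, carries 1 mismatch. The other pair has a spacer of 12 bases and 0 mismatches. The Sesn1 stretch, at chr10:41887234-41887293 on the plus strand, holds a full site with 2 mismatches and a spacer of 3 bases. The Mdm2 stretch, at chr10:117710910-117710969, and the Ccng1 stretch, at chr11:40755437-40755496, both on the minus strand, hold 1 exact half-site each and no full site in these windows. The windows of Btg2, Phlda3, Plk2 and Gdf15 held neither, and nor did the Cdkn1a window of the downstream start, chr17:29093519-29093818. These matches describe letters only, and sites in introns or farther upstream lie outside the windows.

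Across the 6 tumors the targets did not move as a single block. Ccng1, Trp53inp1 and Zmat3 were highest in the PC-La tumors and lower in the SePC-La tumors, Plk2 and Gdf15 had the opposite order, and Cdkn1a and Mdm2 had nearly the same level in PC-La and SePC-La. In PC-La against Laser, 3 of the 9 tested targets had a higher level at an unadjusted p under 0.05 (limma on log2(FPKM + 1)) and 0 had a lower level, where 3.38% of all 10853 tested genes were called higher and 2.4% lower. Against the same Laser tumors, 1 target was called higher and 1 lower in SePC-La, where 4.9% of all genes were called higher and 7.24% lower. Between the photosensitizers, 1 was called higher and 3 lower in SePC-La than in PC-La, where 9.91% of all genes were called higher and 14.4% lower.

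No gene of the table, targets included, reached an adjusted p under 0.05 in any of the comparisons (limma with Benjamini-Hochberg adjustment; smallest adjusted p 0.406, 0.376 and 0.0649 in the order above). At an unadjusted p under 0.05, limma called 627, 1318 and 2637 genes. The voom method on recovered reads gave 0 genes at an adjusted p under 0.05 and 623, 1412 and 2513 at an unadjusted one. An exact permutation test of 2 tumors against 2 cannot give a p below 0.333. The calls below are therefore unadjusted, and the tumors whose removal ended them are named beside them. The split of the calls depended on scaling. Against Laser, 532 genes were called higher and 786 lower in SePC-La, but 810 and 458 with median-ratio scaling and 545 and 478 with quantile normalization. For SePC-La against PC-La, the split of 1075 higher and 1562 lower became 1511 and 1086, and 1249 and 1147.

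The median log2 fold change of the 9 targets was 0.57 in PC-La against Laser, 0.07 in SePC-La against Laser and -0.48 in SePC-La against PC-La, where the medians over all tested genes were -0.001, -0.065 and -0.074. The median against Laser moved with the Laser tumor that was kept, being 0.88 once Laser replicate 1 was removed and 0.21 once Laser replicate 2 was. In PC-La both tumors lay above both Laser tumors for 6 of the 9 targets and below them for 0, against 20.4% and 21.6% of all genes. In SePC-La, 2 targets lay above both Laser tumors and 1 below, against 15.0% and 25.6% of all genes. Against PC-La, 1 target lay above and 5 below in both SePC-La tumors, against 26.0% and 39.5% of all genes. At an absolute log2 fold change over 1 with an unadjusted p under 0.05, the type of threshold used in the study's methods, 2 targets were called in PC-La against Laser (1.29% of all genes), 0 in SePC-La against Laser (0.682%) and 2 in SePC-La against PC-La (2.98%). Those called were Ccng1 and Trp53inp1 both times.

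**Figure D1:**
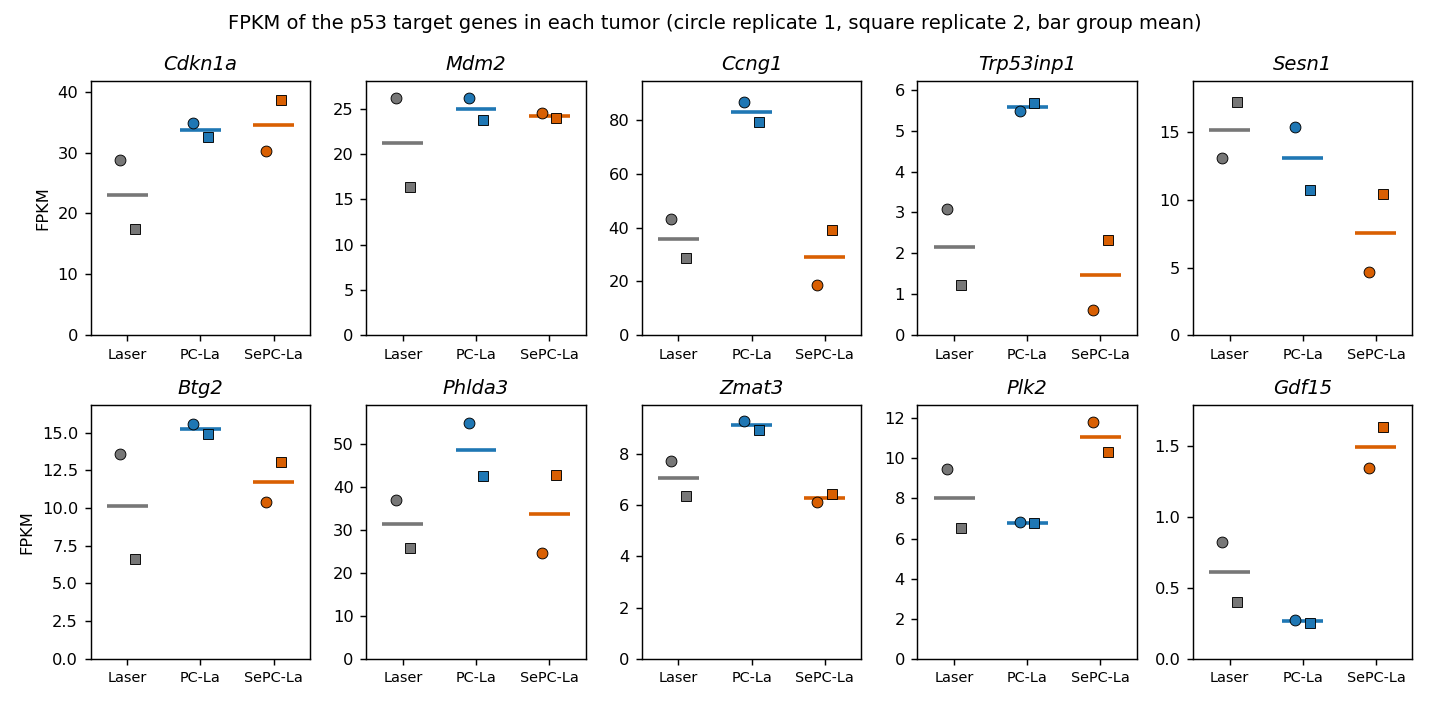
FPKM of each of the 10 p53 target genes (vertical axis, from 0, a scale of its own in each panel) in the 2 tumors of the Laser, PC-La and SePC-La groups, with bars at the group means. Ccng1, Trp53inp1 and Zmat3 stand highest in both PC-La tumors, Plk2 and Gdf15 in both SePC-La tumors, and the Laser tumors lie far apart for Mdm2 and Btg2.

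The tumors themselves limit these comparisons. Totals of 14447792 to 17649489 reads were recovered per tumor. Laser replicate 2 stood apart from Laser replicate 1, with a correlation of log2 values across genes of 0.946, while Laser replicate 1 correlated with the PC-La tumors at 0.986 and 0.983. Laser replicate 2 was the lowest of the 6 tumors for 4 of the 10 targets and SePC-La replicate 1 for 5, whereas PC-La replicate 1 was the highest for 5. Of 8 lung epithelium markers, Sftpd, Nkx2-1 and Scgb1a1 were at 0 in every tumor and 7 were under 1 FPKM throughout, with sums of 0.679 to 1.74 FPKM, so the labelled lung cancer tissue held little RNA of normal lung epithelium. The 6 carcinoma keratin and adhesion genes summed to 189 to 277 FPKM, but 3 of them, Krt7, Krt19 and Epcam, were under 1 FPKM throughout. Of 8 macrophage markers none was under 1 FPKM throughout, and they summed to 423 to 864 FPKM, so the tumor RNA came from several cell types. In bulk RNA, fewer cells of a type and less RNA per cell cannot be told apart.

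Cdkn1a encodes p21, the inhibitor of cyclin-dependent kinases through which p53 halts the cell cycle. It lies at chr17:29090976-29100727 (GRCm38). Its level was 28.8 and 17.4 FPKM in the Laser tumors, 34.9 and 32.5 in the PC-La tumors, and 30.3 and 38.7 in the SePC-La tumors. All 4 tumors that received a photosensitizer were above both Laser tumors, and Laser replicate 1 was closer to them than to Laser replicate 2. The mean was 1.46-fold that of Laser in PC-La and 1.5-fold in SePC-La. The log2 fold change was 0.57 ± 0.24 (SE) in PC-La (limma, unadjusted p = 0.0571) and 0.59 ± 0.24 in SePC-La (unadjusted p = 0.0497; adjusted p = 0.411 by limma with Benjamini-Hochberg adjustment). The first value missed the threshold and the second passed it by little, and the estimates differed by far less than their errors.

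The call for Cdkn1a in SePC-La against Laser was lost in most alternatives. Without Laser replicate 2 the value was 0.24, without SePC-La replicate 1 it was 0.76 and without SePC-La replicate 2 it was 0.42, and a pseudocount of 0.1, no filter, plain empirical Bayes or a fit of only the 4 tumors also raised p above 0.05. In PC-La against Laser the call was gained with median-ratio scaling (0.54), quantile normalization (0.56), voom (0.60) and without Laser replicate 1 (0.91). The erythroid markers, 4 globin genes and Alas2, were higher in the same 4 tumors, with sums of 127 and 13.6 FPKM in the Laser tumors, 263 and 361 in the PC-La tumors, and 613 and 932 in the SePC-La tumors. Of these 5 markers, 3 were called higher in PC-La and 5 in SePC-La against Laser, where 3.38% and 4.9% of all genes were. Their sum ranked the tumors as Cdkn1a did in 4 of 6 places. The part of this in the Cdkn1a result was not tested. Between the photosensitizers the difference was 0.02, with a 95% interval from -0.57 to 0.61, so a change of up to about that size in either direction was not detectable with these tumors. An annotated antisense gene, AC167363.2, overlaps Cdkn1a, and whether the counting used strand is not given in the sources used here.

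Mdm2, the ubiquitin ligase that turns over p53, had 26.2 and 16.4 FPKM in the Laser tumors, 26.3 and 23.8 in the PC-La tumors, and 24.5 and 24.0 in the SePC-La tumors. The 4 photosensitizer tumors lay within the range of the Laser tumors apart from PC-La replicate 1, which was level with Laser replicate 1. The log2 fold change was 0.26 ± 0.21 (SE) in PC-La and 0.22 ± 0.21 in SePC-La against Laser, with unadjusted p of 0.268 and 0.346 in limma. Both turned on the Laser tumors, at 0.58 and 0.54 without Laser replicate 1, and at -0.06 and -0.11 without Laser replicate 2. The difference between SePC-La and PC-La was -0.04, with a 95% interval from -0.56 to 0.48, and its sign turned to 0.06 with median-ratio scaling.

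The genes with the profile closest to Cdkn1a over the 6 tumors, by the root mean square difference of centred log2 values among 7490 genes averaging 5 FPKM or more, were Gm5150 (0.081), Rtp4 (0.097) and St3gal6 (0.113), where Cdkn1a itself varied by 0.354 around its mean. Those closest to Mdm2, which varied by 0.223, included Rpl22l1 (0.05) and Zfp513 (0.053). None of these 5 genes is in the lists of p53 targets used here. With only 6 tumors, a small difference of this kind is a description of the profiles.

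Ccng1 encodes cyclin G1, which recruits a phosphatase to Mdm2 and takes part in the feedback on p53. It is at chr11:40748552-40755311 on the minus strand of GRCm38. It was the most abundant target on average, at 43.1 and 28.6 FPKM in the Laser tumors, 86.7 and 79.4 in the PC-La tumors, and 18.7 and 39.2 in the SePC-La tumors. Both PC-La tumors were above all 4 other tumors, and the SePC-La tumors overlapped the Laser tumors. The mean in PC-La was 2.32-fold that of Laser, a log2 fold change of 1.22 ± 0.36 (SE; limma, unadjusted p = 0.0167, adjusted p = 0.753). The mean in SePC-La was 0.349 of that in PC-La, with a log2 fold change of -1.58 ± 0.36 (limma, unadjusted p = 0.00552, adjusted p = 0.126).

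The lower Ccng1 level in SePC-La than in PC-La kept its call with any of the 4 tumors left out. The higher level in PC-La than in Laser lost it without Laser replicate 2 (0.93), without PC-La replicate 1 (1.15) and without PC-La replicate 2 (1.28), where 1 tumor then stood for its group. The value in SePC-La against Laser was -0.36 (unadjusted p = 0.365). It was -0.87 without SePC-La replicate 2 and 0.16 without SePC-La replicate 1, so the direction depended on the SePC-La tumor.

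Trp53inp1, a stress-induced nuclear protein that takes part in apoptosis and autophagy, followed the order of Ccng1 at a lower level. It had 3.08 and 1.23 FPKM in the Laser tumors, 5.47 and 5.67 in the PC-La tumors, and 0.609 and 2.33 in the SePC-La tumors. The PC-La tumors again were above all others, and SePC-La replicate 1 was the lowest, with 57 recovered reads against 549 to 554 in PC-La. The log2 fold change was 1.12 ± 0.42 (SE) in PC-La against Laser (limma, unadjusted p = 0.0357, adjusted p = 0.753) and -1.51 ± 0.42 in SePC-La against PC-La (unadjusted p = 0.0112, adjusted p = 0.138). The second kept its call with any of the 4 tumors left out. The first lost it without Laser replicate 2 (0.69), without PC-La replicate 1 (1.14), without PC-La replicate 2 (1.1) and with a pseudocount of 0.1 (1.46).

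The Trp53inp1 difference between SePC-La and Laser was -0.38, and it became 0.05 without Laser replicate 1 and 0.14 without SePC-La replicate 1. The tumors of the Laser and SePC-La groups thus overlapped for this gene, as they did for Ccng1.

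Zmat3, an RNA-binding zinc finger protein that p53 induces and that acts in splicing and growth suppression, moved less but in the same order. It had 7.73 and 6.38 FPKM in the Laser tumors, 9.30 and 8.95 in the PC-La tumors, and 6.11 and 6.43 in the SePC-La tumors. Its replicates were close, and the PC-La tumors did not overlap either of the other groups. Its log2 fold change was 0.33 ± 0.14 (SE) in PC-La against Laser (limma, unadjusted p = 0.0491, adjusted p = 0.753) and -0.48 ± 0.14 in SePC-La against PC-La (unadjusted p = 0.0122, adjusted p = 0.139). The first was lost without Laser replicate 2 (0.21), without PC-La replicate 1 (0.31) and without PC-La replicate 2 (0.36), and with median-ratio scaling, a minimum mean of 5 FPKM, plain empirical Bayes or a fit of only the 4 tumors. The second was lost without PC-La replicate 1 (-0.45), without PC-La replicate 2 (-0.50) and without SePC-La replicate 1 (-0.45).

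Phlda3, a pleckstrin homology protein that competes with Akt for membrane lipids, had 37.0 and 25.8 FPKM in the Laser tumors, 54.8 and 42.5 in the PC-La tumors, and 24.7 and 42.8 in the SePC-La tumors. The PC-La tumors were above the Laser tumors, while the 2 SePC-La tumors spanned a range that overlapped both other groups. The log2 fold change was 0.63 ± 0.30 (SE) in PC-La against Laser (limma, unadjusted p = 0.0845), 0.07 in SePC-La against Laser (unadjusted p = 0.82) and -0.55 in SePC-La against PC-La (unadjusted p = 0.118). Of these, the first fell under the threshold without Laser replicate 1 (0.88) and the last without SePC-La replicate 2 (-0.94). The second value was -0.18 without Laser replicate 2 and -0.31 without SePC-La replicate 2.

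Btg2, an antiproliferative gene that acts in mRNA deadenylation and that growth factors induce as well, had 13.6 and 6.65 FPKM in the Laser tumors, 15.6 and 14.9 in the PC-La tumors, and 10.4 and 13.1 in the SePC-La tumors. Both PC-La tumors were above the other 4, and the SePC-La tumors lay between the Laser tumors. The log2 fold changes were 0.62 ± 0.30 (SE), 0.26 ± 0.30 and -0.36 ± 0.30 in PC-La against Laser, SePC-La against Laser and SePC-La against PC-La, with unadjusted p of 0.0866, 0.422 and 0.281 in limma. Laser replicate 2 was the lowest of the 6 tumors, and without Laser replicate 1 the first 2 values were 1.09 and 0.73. Without Laser replicate 2 the SePC-La value was -0.21.

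Sesn1 encodes sestrin 1, which takes part in the regeneration of peroxiredoxins and in the restraint of mTORC1. It had 13.1 and 17.3 FPKM in the Laser tumors, 15.4 and 10.8 in the PC-La tumors, and 4.68 and 10.5 in the SePC-La tumors. It was the only tested target at its lowest in both SePC-La tumors and at its highest in a Laser tumor, Laser replicate 2. The mean in SePC-La was 0.498 of that in Laser, a log2 fold change of -0.99 ± 0.36 (SE; limma, unadjusted p = 0.0351, adjusted p = 0.388).

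The Sesn1 call was lost without Laser replicate 2 (-0.81) and without SePC-La replicate 1 (-0.49). Against PC-La the difference was -0.78, and without SePC-La replicate 2 it was -1.29. Between PC-La and Laser it was -0.21, and 0.03 without PC-La replicate 2. Laser replicate 2 also had the highest sum of the 8 skeletal muscle markers, 158 FPKM against 23.4 in Laser replicate 1 and 1.57 to 6.48 in the other 4 tumors, and the part of this in the Sesn1 result was not tested. The gene 9930024M15Rik lies within Sesn1 in the annotation. Of the 2 Sesn1 promoter windows, the one with the full-site sequence match is that of the downstream start.

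Plk2, a polo-like kinase of the G1 and S phases that several stresses induce, had the reverse order. It had 9.49 and 6.52 FPKM in the Laser tumors, 6.81 and 6.78 in the PC-La tumors, and 11.8 and 10.3 in the SePC-La tumors. Both SePC-La tumors were above all 4 others, and the PC-La tumors lay within the range of the Laser tumors. Its log2 fold change was 0.62 ± 0.19 (SE) in SePC-La against PC-La (limma, unadjusted p = 0.0136, adjusted p = 0.143) and 0.44 ± 0.19 in SePC-La against Laser (unadjusted p = 0.0538). The call between the photosensitizers was lost without PC-La replicate 1 (0.63), without PC-La replicate 2 (0.62) and without SePC-La replicate 1 (0.53). The difference from Laser passed the threshold with median-ratio scaling (0.51), quantile normalization (0.50), voom (0.48) and a fit without Laser replicate 1 (0.68). The difference between PC-La and Laser was -0.19, but 0.05 without Laser replicate 1 and -0.43 without the other one.

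Gdf15, a secreted member of the TGF-β family, was the least abundant target. It had 0.824 and 0.398 FPKM in the Laser tumors, 0.276 and 0.253 in the PC-La tumors, and 1.35 and 1.64 in the SePC-La tumors, which correspond to 24 and 13, 8 and 7, and 36 and 53 reads. The 3 groups did not overlap, with SePC-La highest and PC-La lowest, and the counts are small in every tumor. The mean in SePC-La was 5.64-fold that of PC-La and 2.44-fold that of Laser. In the fit with no filter, the log2 fold change on the log2(FPKM + 1) scale, which understates changes at this level, was 0.98 ± 0.17 (SE) against PC-La (limma, unadjusted p = 0.00197, adjusted p = 0.199) and 0.64 ± 0.17 against Laser (unadjusted p = 0.0125, adjusted p = 0.494). The call against PC-La was kept with either SePC-La tumor left out, and that against Laser was lost without SePC-La replicate 2 (0.55). With a pseudocount of 0.1 the value against Laser was 1.22 (unadjusted p = 0.0225), and with voom on recovered reads it was 1.37 (unadjusted p = 0.0304).

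Between PC-La and Laser, Gdf15 differed by -0.34 ± 0.17, and by -0.53 without Laser replicate 2. Gdf15 and Plk2 were thus the targets with the higher level in both SePC-La tumors than in any other tumor, while Cdkn1a had its highest level in SePC-La replicate 2 alone.

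**Figure D2:**
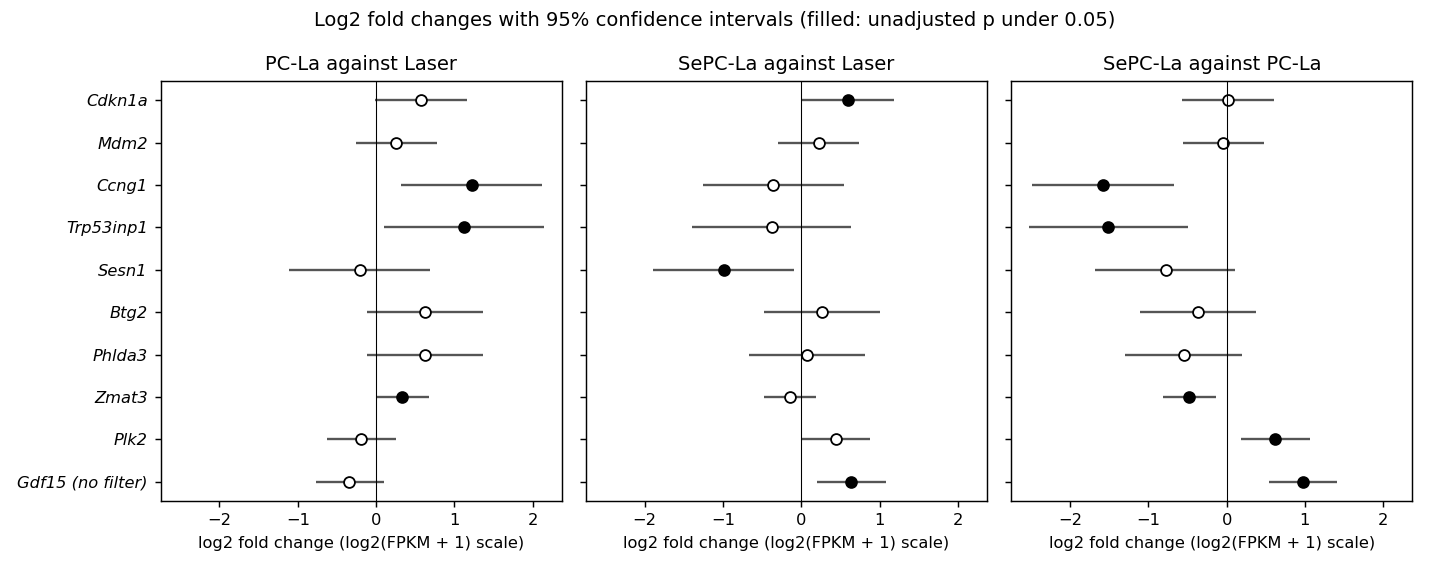
Log2 fold change (horizontal axis, on the log2(FPKM + 1) scale) of each p53 target in the 3 comparisons, with points for the estimates, lines for 95% confidence intervals and filled points at an unadjusted p under 0.05. Gdf15 is from the fit with no filter. Ccng1 and Trp53inp1 lie furthest to the left in SePC-La against PC-La, at -1.58 and -1.51, and Plk2 and Gdf15 lie to the right.

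The levels relative to Cdkn1a within a tumor, which do not depend on scaling between tumors, were computed after the data were seen. The ratio of Ccng1 to Cdkn1a was 1.5 and 1.64 in the Laser tumors, 2.48 and 2.44 in the PC-La tumors, and 0.617 and 1.01 in the SePC-La tumors. That of Trp53inp1 was 0.107 and 0.0709, 0.157 and 0.174, and 0.0201 and 0.0601 in the same order. Both genes thus had more RNA per Cdkn1a RNA in PC-La and less in SePC-La than in any Laser tumor. For Gdf15 the ratio was 0.0287 and 0.0229, 0.00792 and 0.00778, and 0.0444 and 0.0423, with the groups in the reverse order. For Mdm2 it was 0.91 and 0.94 in the Laser tumors, 0.752 and 0.734 in the PC-La tumors, and 0.809 and 0.62 in the SePC-La tumors, so that Mdm2 relative to Cdkn1a was lower in the 4 photosensitizer tumors. Of the 9 ratios, 6 were lower in both SePC-La tumors than in all 4 others (Ccng1, Trp53inp1, Sesn1, Btg2, Phlda3 and Zmat3), where 34.1% of all tested genes were, and 1 was higher (Gdf15), where 0.673% were. All of these ratios share the Cdkn1a value of each tumor.

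**Figure D3:**
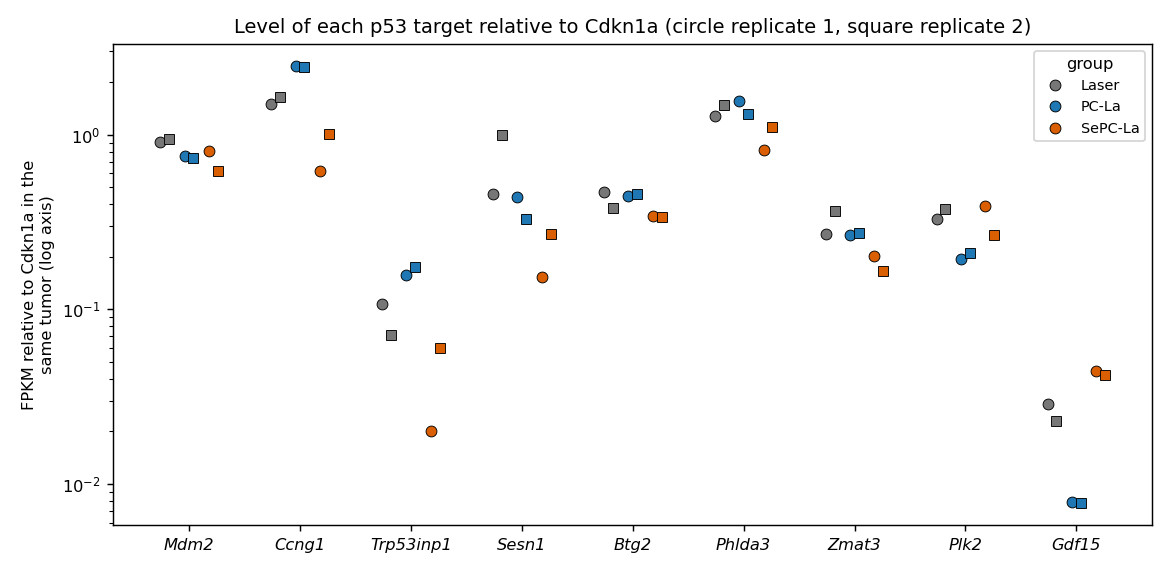
FPKM of each other p53 target divided by that of Cdkn1a in the same tumor (vertical log axis), for the 2 tumors of each group. The Ccng1 ratio is near 2.48 in the PC-La tumors and at 0.617 and 1.01 in the SePC-La tumors, and the Gdf15 ratio has the opposite order.

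The sum of the fibroblast markers moved with part of the targets. The 7 markers, Col1a1, Col1a2, Col3a1, Dcn, Lum, Pdgfra and Pdgfrb, summed to 1240 and 288 FPKM in the Laser tumors, 1720 and 1570 in the PC-La tumors, and 122 and 634 in the SePC-La tumors. The order of the 6 tumors by this sum was the same as by Ccng1 and by Zmat3, in all 6 places, and the same in 4 places for Trp53inp1 and Btg2, 3 for Phlda3 and 0 for Cdkn1a. Among the sums of the other 10 marker lists, that of the 7 T and NK cell markers ranked the tumors as Phlda3 did in all 6 places, with 25.1 and 19.1 FPKM in the Laser tumors, 46.3 and 28.3 in the PC-La tumors, and 16.3 and 34.1 in the SePC-La tumors. These matches were picked from those of all targets with all marker lists, and the share of all tested genes with the same order was not computed. None of the 7 fibroblast markers passed an unadjusted p of 0.05 (limma) in any comparison. Of these 7, 4 lay lower in both SePC-La tumors than in both PC-La tumors, where 39.5% of all genes did. By the estimate, 5 were lower and 2 higher in SePC-La than in PC-La, from -3.09 to 0.59. Among all tested genes, 6350 were lower and 4503 higher. Only 4 of the T and NK cell markers were tested. Of those, 0 were called in any comparison, and 0 lay lower in both SePC-La tumors than in both PC-La tumors. The neutrophil markers, which summed to 152 and 39.7, 146 and 78.7, and 338 and 441 FPKM, were highest in the SePC-La tumors, as were Plk2 and Gdf15. The part of the fibroblast, T and NK cell and neutrophil markers in these results was not tested.

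**Figure D4:**
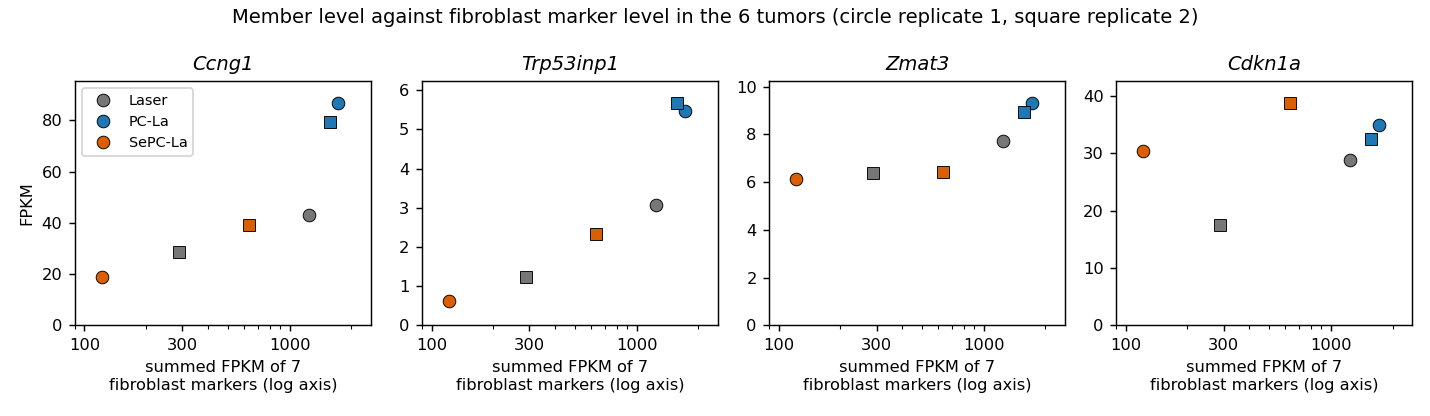
FPKM of Ccng1, Trp53inp1, Zmat3 and Cdkn1a (vertical axes, from 0) against the summed FPKM of 7 fibroblast markers (horizontal log axis) in the 6 tumors. Ccng1 and Zmat3 rank the tumors as the marker sum does, from SePC-La replicate 1 at 122 FPKM to PC-La replicate 1 at 1720 FPKM, and Cdkn1a does not.

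Among the regulators of p53, Trp53 itself had 50.8 and 47.2 FPKM in the Laser tumors, 45.6 and 45.1 in the PC-La tumors, and 60.0 and 54.5 in the SePC-La tumors. Its RNA was lowest in PC-La and highest in SePC-La with no overlap, and SePC-La exceeded PC-La by 0.33 ± 0.12 (SE; limma, unadjusted p = 0.0306, adjusted p = 0.176). The call was lost without PC-La replicate 1 (0.34), without PC-La replicate 2 (0.32) and without SePC-La replicate 1 (0.26). RNA level says nothing of the p53 protein, which is controlled mainly by its stability. Mdm4, the partner of Mdm2 that masks the p53 activation domain, had 14.4 and 6.86, 12.3 and 12.8, and 7.39 and 6.84 FPKM in the same order. It was lower by -0.74 ± 0.30 in SePC-La than in PC-La (limma, adjusted p = 0.206), just under the unadjusted threshold, and the call was lost with any of the 4 tumors left out (-0.79 to -0.69).

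Of the 15 tested regulators, 1 was called higher and 3 lower in SePC-La against PC-La, near the 9.91% and 14.4% of all genes. The lower ones besides Mdm4 were the acetyltransferase gene Ep300 (-0.40, unadjusted p = 0.02), a p53 coactivator, and Atm (-0.52, unadjusted p = 0.021), the kinase of the double-strand break response. Against Laser, Ep300 was lower in SePC-La (-0.51), and it kept that call with any tumor left out, while against PC-La it lost it without PC-La replicate 1 (-0.40), PC-La replicate 2 (-0.40) or SePC-La replicate 2 (-0.33). Atm lost its call without PC-La replicate 2 (-0.38) or SePC-La replicate 2 (-0.46). Without PC-La replicate 2 fewer regulators were called in SePC-La against PC-La, as were fewer of all tested genes. In PC-La against Laser 0 regulators were called higher and 1 lower (3.38% and 2.4% of all genes). It was the deacetylase gene Sirt1 (-0.45), whose call was lost without Laser replicate 2 (-0.28) or PC-La replicate 2 (-0.32). Cdkn2a, whose Arf product inhibits Mdm2, was at 0.164 FPKM or less in every tumor, and it did not pass the filter.

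The other p53 targets were divided as well. Of 9 tested targets in apoptosis, 0 were called in PC-La against Laser, where Fas, a death receptor, had the largest difference (0.70, unadjusted p = 0.111). Between SePC-La and PC-La, 2 were lower in SePC-La and 0 higher, where 14.4% and 9.91% of all genes were. These were Apaf1 (-0.51, unadjusted p = 0.00473), the core of the apoptosome, at 10.2 and 10.7 FPKM in the PC-La tumors against 6.92 and 7.24 in the SePC-La tumors, and Pidd1 (-0.61, unadjusted p = 0.00819), the core of the PIDDosome. Both lost their call without PC-La replicate 2 (-0.48 and -0.47) and kept it without any of the other 3 tumors. In SePC-La against Laser, Apaf1 was the 1 gene called (-0.36), where 7.24% of all genes were called lower, and that call was lost without Laser replicate 2 (-0.34) or SePC-La replicate 1 (-0.33).

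Of 10 tested targets in DNA repair and metabolism, 0 were called in PC-La against Laser, where Dcxr, a carbonyl reductase gene, had the largest difference (0.59, unadjusted p = 0.062). In SePC-La against PC-La, 1 was called higher and 4 lower, where 9.91% and 14.4% of all genes were. The lower ones with the smallest p were Polk (-0.52, unadjusted p = 0.00544), a translesion polymerase, Gadd45a (-0.51, unadjusted p = 0.0214), a damage-inducible growth arrest gene, and Dcxr (-0.76, unadjusted p = 0.0252). Polk lost its call without PC-La replicate 1 (-0.47), Gadd45a without PC-La replicate 1 (-0.44) or SePC-La replicate 1 (-0.30), and Dcxr without the same tumors (-0.56 and -0.41). The higher one was Sesn2 (0.50, unadjusted p = 0.0141), the paralog of Sesn1, at 8.06 and 9.86 FPKM in the Laser tumors, 9.21 and 9.02 in the PC-La tumors, and 14.5 and 12.3 in the SePC-La tumors. This call was lost without PC-La replicate 1 (0.52), PC-La replicate 2 (0.49) or SePC-La replicate 1 (0.39). Sesn2 was also the 1 gene called in SePC-La against Laser (0.53; limma, unadjusted p = 0.0111), where 4.9% of all genes were called higher. Sesn1 had its lowest levels in the SePC-La tumors and Sesn2 its highest, but each sestrin call depended on single tumors. Without PC-La replicate 1 or SePC-La replicate 1, fewer of the 10 were called in SePC-La against PC-La, as were fewer of all tested genes. The Sesn2 call against Laser was lost without SePC-La replicate 1 (0.42).

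Among 10 further targets, Eda2r, a p53-induced receptor of the tumor necrosis factor receptor family, had the pattern of Ccng1 and Trp53inp1. It had 3.39 and 1.01 FPKM in the Laser tumors, 5.38 and 5.67 in the PC-La tumors, and 0.764 and 1.73 in the SePC-La tumors. Both PC-La tumors were above all others. Eda2r was the 1 further target called in PC-La against Laser, where 3.38% of all genes were called higher. The log2 fold change was 1.13 ± 0.40 (SE) in PC-La against Laser (limma, unadjusted p = 0.0288, adjusted p = 0.753) and -1.57 ± 0.40 in SePC-La against PC-La (unadjusted p = 0.00744, adjusted p = 0.13). The second kept its call with any tumor left out, and the first lost it without Laser replicate 2 (0.57), without PC-La replicate 1 (1.17) and without PC-La replicate 2 (1.1). Eda2r ranked the tumors as the fibroblast marker sum did in 4 of 6 places.

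In SePC-La against PC-La, 2 of the 10 further targets were called higher, Epha2 (0.63, unadjusted p = 0.0178) and Triap1 (0.34, unadjusted p = 0.0233), and 2 lower, Eda2r and Abhd4 (-0.47), near the 9.91% and 14.4% of all genes. Epha2 is a receptor tyrosine kinase, and Triap1 takes part in lipid transfer in mitochondria. Epha2 and Abhd4 lost their calls without PC-La replicate 1 (0.62 and -0.39), PC-La replicate 2 (0.65 and -0.55) or SePC-La replicate 1 (0.37 and -0.20), and Triap1 with any of the 4 tumors left out (0.32 to 0.37). In SePC-La against Laser, Abhd4 was the 1 gene called, at -0.58 (limma, unadjusted p = 0.0223), where 7.24% of all genes were called lower. This call was lost without Laser replicate 2 (-0.50) or SePC-La replicate 1 (-0.32).

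The genes that p53 lowers through p21 and the DREAM complex, a repressor of cell cycle genes, were counted next. Of 15 tested, 6 were called higher and 0 lower in SePC-La against PC-La, 3 higher and 0 lower in SePC-La against Laser, and 0 higher and 1 lower in PC-La against Laser. Of all genes, 9.91%, 4.9% and 3.38% were called higher and 14.4%, 7.24% and 2.4% lower in these comparisons. By the estimate alone, 4503 of all tested genes were higher and 6350 lower in SePC-La against PC-La, and 4368 higher and 6485 lower against Laser. Of the 15, 13 were higher and 2 lower in SePC-La against PC-La, and 11 higher and 4 lower against Laser. Among the lower ones, Mki67 had 35.4 and 32.0 FPKM in the SePC-La tumors against 39.6 to 40.8 in all other tumors. Its log2 fold change was -0.25 in either comparison, and it was not called. Cdc20, an activator of the anaphase-promoting complex, had 59.5 and 67.6 FPKM in the Laser tumors, 50.7 and 48.3 in the PC-La tumors, and 71.4 and 72.1 in the SePC-La tumors, lowest in PC-La and highest in SePC-La with no overlap. It was higher by 0.53 on the log2 scale in SePC-La than in PC-La (unadjusted p = 0.00434), and the helicase genes Mcm5 (0.49, unadjusted p = 0.00533) and Mcm3 (0.57, unadjusted p = 0.00642) were higher as well. The Cdc20 call was kept with any tumor left out, and those of Mcm5 (0.44) and Mcm3 (0.46) were lost without PC-La replicate 1.

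In SePC-La against Laser, Mcm5 (0.35, unadjusted p = 0.023), Birc5, an inhibitor of apoptosis of dividing cells (0.33, unadjusted p = 0.034), and Mcm3 (0.36, unadjusted p = 0.0449) were called. Mcm5 lost this call without Laser replicate 1 (0.31) or SePC-La replicate 1 (0.30), and Mcm3 without Laser replicate 1 (0.32), Laser replicate 2 (0.39) or SePC-La replicate 1 (0.24). Birc5 lost it without Laser replicate 2 (0.29), SePC-La replicate 1 (0.33) or SePC-La replicate 2 (0.34). The gene called in PC-La against Laser was Cdc20, at -0.35 (unadjusted p = 0.0264). Cdkn1a itself differed by 0.02 between the photosensitizers. With either PC-La tumor left out, fewer of the 15 were called higher in SePC-La against PC-La, and fewer of all tested genes were too. Without SePC-La replicate 1, fewer of the 15 were called higher against Laser, as were fewer of all tested genes. The Cdc20 call in PC-La against Laser was lost without Laser replicate 2 (-0.26), PC-La replicate 1 (-0.38) or PC-La replicate 2 (-0.32).

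Other stress pathways that share members with the p53 response were read from the same fit. Of 12 targets of ATF4 and CHOP, the factors of the integrated stress response, 0 were called in PC-La against Laser, 8 were higher in SePC-La against Laser and 10 were higher in SePC-La against PC-La, with 0 lower, where 3.38%, 4.9% and 9.91% of all genes were called higher. Atf4 itself had 114 and 112 FPKM in the Laser tumors, 90.2 and 122 in the PC-La tumors, and 201 and 170 in the SePC-La tumors, and its log2 fold change was 0.70 (unadjusted p = 0.00677) and 0.81 (unadjusted p = 0.00339) against Laser and PC-La. Both SePC-La tumors were above the other 4, as they were for Gdf15 and Plk2, while the Laser and PC-La tumors overlapped for Atf4. Atf4 kept both calls with any tumor left out. The part of ATF4 in the Gdf15 result was not tested.

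The genes with the smallest p against Laser besides Atf4 were Atf3 (0.77, unadjusted p = 0.00467), a stress-induced transcription factor, and Ddit4 (0.66, unadjusted p = 0.00601), an inhibitor of mTORC1 also known as a p53 target. Against PC-La they were Phgdh (1.08, unadjusted p = 0.00166), the entry enzyme of serine synthesis, and Ddit4 (0.76, unadjusted p = 0.00295). These 4 calls were kept with any tumor left out. Sesn2 is in this list too. In PC-La against Laser the largest difference was that of Atf5 (0.82, unadjusted p = 0.0547). Without SePC-La replicate 1 fewer of the 12 were called higher against Laser, and with any tumor left out fewer were called higher against PC-La. Fewer of all tested genes were called higher in these settings as well.

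Of 11 hypoxia targets in the table, 0 were called in PC-La against Laser, 9 were higher in SePC-La against Laser and 10 in SePC-La against PC-La, with 0 lower, beside 4.9% and 9.91% of all genes called higher. Egln3, an oxygen-dependent hydroxylase, had 65.0 and 65.8 FPKM in the Laser tumors, 67.7 and 63.8 in the PC-La tumors, and 120 and 112 in the SePC-La tumors. The replicates were close and the SePC-La tumors stood clear of the rest, with a log2 fold change of 0.81 in either comparison (unadjusted p = 0.000319 and 0.000336). The glycolytic enzyme gene Pgk1 (0.83 and 1.02) and the glucose transporter gene Slc2a1 (1.07 and 1.3) were called in both comparisons, and they and Egln3 kept these calls with any tumor left out. Adm had the largest difference between PC-La and Laser (-0.78, unadjusted p = 0.121). Most of the 11 were still called higher in both SePC-La comparisons with any tumor left out, while the number called among all tested genes varied.

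Of 12 immediate early genes, which growth factors and stress induce rapidly, as they do Btg2, 0 were called higher and 1 lower in PC-La against Laser, namely Fosl1 (-0.60, unadjusted p = 0.00775), where 3.38% and 2.4% of all genes were. In SePC-La 3 were called higher against Laser, Ier3 (1.16, unadjusted p = 0.00219), Fosl1 (0.58, unadjusted p = 0.00882) and Junb (0.65, unadjusted p = 0.0238), with 0 lower (4.9% and 7.24% of all genes). Against PC-La 3 were higher, Fosl1 (1.17, unadjusted p = 0.000208), Ier3 (1.68, unadjusted p = 0.000288) and Dusp1 (0.75, unadjusted p = 0.0391), and 1 was lower, Egr3 (-0.79, unadjusted p = 0.0184), where 9.91% and 14.4% of all genes were. Ier3, an apoptosis modulator that is also a p53 target, had 159 and 95.8 FPKM in the Laser tumors, 83.2 and 88.9 in the PC-La tumors, and 289 and 266 in the SePC-La tumors, well above the rest. The comparisons of PC-La and SePC-La with Laser share the Laser tumors, so their counts are not independent. Fosl1 and Ier3 kept their SePC-La calls with any tumor left out, and Fosl1 in PC-La lost its call without PC-La replicate 1 (-0.55). Junb lost it without SePC-La replicate 1 (0.69) or SePC-La replicate 2 (0.61), Dusp1 without PC-La replicate 2 (0.55) or SePC-La replicate 2 (0.38), and Egr3 with any of the 4 left out (-0.83 to -0.74). Without Laser replicate 1, more immediate early genes were called higher in PC-La than in Laser, and without Laser replicate 2, more were called lower in SePC-La. The matching counts over all tested genes rose in these settings as well.

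**Figure D5:**
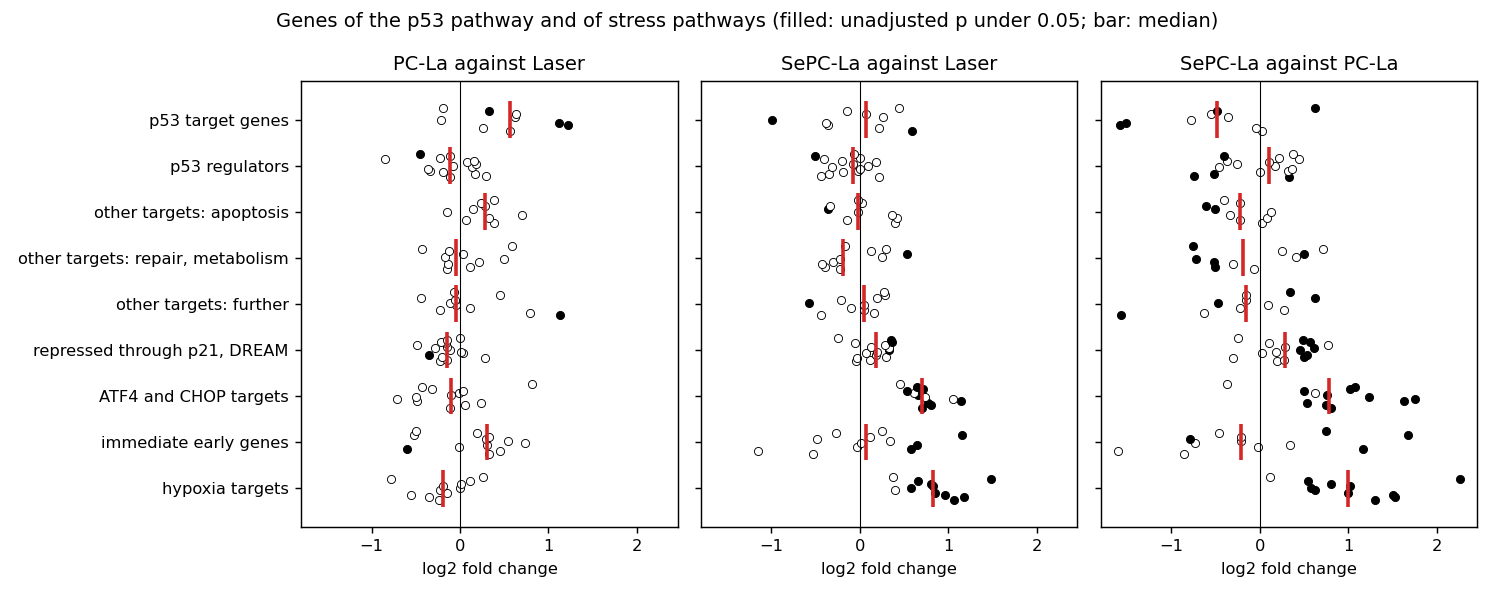
Log2 fold change (horizontal axis, on the log2(FPKM + 1) scale) of the tested genes of each list in the 3 comparisons, with filled points at an unadjusted p under 0.05 and a bar at the list median. In SePC-La against PC-La the median is -0.48 for the p53 target genes, 0.78 for the ATF4 and CHOP targets and 1.00 for the hypoxia targets.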

How the data were processed

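RNA-seq of 6 tumors, 2 each of Laser, PC-La and SePC-La, was analysed from the gene table of the series. Per the labels, libraries were made from total RNA with a NEBNext Ultra II kit. The submitters' processing notes list HISAT2 2.0.5, HTSeq 0.9.1, DESeq 1.30.0 and the build mm9, without their roles. The values deposited by the authors behaved as FPKM. Multiplied by the merged exon lengths of GENCODE M21 (GRCm38, not mm9), they gave whole reads, within 0.02, in all 6 tumors for 97.8% of the 16808 expressed genes, and for every target. The recovered totals per tumor ranged from 14447792 to 17649489 reads. Coordinates of genes are those of GENCODE M21.

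The 10 targets and the other lists were chosen with earlier results of these data known. The 10853 genes that averaged 1 FPKM or more were put on the log2(FPKM + 1) scale and fitted in R 4.3.3 by limma 3.58.1, with all 6 tumors in 1 fit, a mean per group, and empirical Bayes with trend and robust estimation. Median degrees of freedom were 6.4, of which 3.4 came from the prior. This scale understates the changes of low genes. No count model was the main test, since the table holds no counts. Fold changes in level are ratios of mean FPKM. The text names every target, Trp53 and Mdm4, and from each other list up to 3 genes in each direction with the smallest unadjusted p under 0.05, or the largest difference where no gene passed. Beyond this rule, genes that bear on a target or a list were named after their values were seen. These were Cdkn2a, and with their values Sesn2, Eda2r, Ier3 and Mki67. The scripts were tested on simulated data.

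Alternatives were a pseudocount of 0.1, no filter, quantile normalization, median-ratio scaling, a minimum mean of 5 FPKM, plain empirical Bayes, only the 4 tumors compared, the replicate number as a block, voom on recovered reads, the study's criterion, and each tumor left out in turn, where the remaining tumor of its group is assumed to vary like the others. Tables and plots used Python 3.11.15, pandas 2.3.3, NumPy 2.4.6 and matplotlib 3.10.9.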

Additional observations from a re-analysis of the deposited data

How the results depend on the processing

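Of 369 recomputed fold changes of single targets, 301 kept their direction and their side of the threshold, 33 kept the direction and lost the call, 21 gained one and 14 turned in sign. With no filter, another minimum mean, plain empirical Bayes, only the 4 tumors or the replicate block, the fold change itself is unchanged by design. Its direction could not turn there. The 301 also include differences that had no call to lose. The count of genes at an unadjusted p under 0.05 in PC-La against Laser was 627, and 975 with no filter and 403 with a minimum mean of 5 FPKM. It was 1318 in SePC-La against Laser, and 700 with only the 4 tumors compared. With a tumor left out the counts were 204 to 2700 and 828 to 2121, and 876 to 2548 in SePC-La against PC-La (2637 with all). At an adjusted p under 0.05, limma called 312 genes in PC-La against Laser and 97 in SePC-La against Laser without Laser replicate 1. In SePC-La against PC-La it called 637 with only the 4 tumors compared, 8 with quantile normalization, 6 with median-ratio scaling and 3 with a minimum of 5 FPKM. The cause was not tested.

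Targets called in PC-La against Laser numbered 3, and 1 with a minimum mean of 5 FPKM (Trp53inp1 is then not tested) or with the replicate block. In SePC-La against Laser they numbered 2, and 0 at the study's criterion and 1 with a pseudocount of 0.1, plain empirical Bayes or only the 4 tumors. In SePC-La against PC-La they numbered 4, and 2 at the study's criterion. With a tumor left out these numbers changed, and so did those called among all tested genes. The largest number of targets in PC-La against Laser came without Laser replicate 1, where the most of all tested genes were called too. The median of the targets in PC-La against Laser ranged from 0.21 to 0.88 with a tumor left out.

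With a tumor left out, these differences spanned 0. In SePC-La against Laser, Btg2 ranged from -0.21 to 0.73, Ccng1 from -0.87 to 0.16, Mdm2 from -0.11 to 0.54, Phlda3 from -0.31 to 0.46 and Trp53inp1 from -0.91 to 0.14. In PC-La against Laser, Mdm2 ranged from -0.06 to 0.58, Plk2 from -0.43 to 0.05 and Sesn1 from -0.45 to 0.03. In SePC-La against PC-La, Cdkn1a ranged from -0.15 to 0.20 and Mdm2 from -0.11 to 0.03, and Mdm2 was 0.06 with median-ratio scaling.

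The labels do not say whether tumors of the same replicate number belong together. The difference between replicates 1 and 2 correlated across genes at 0.09 between Laser and PC-La, -0.43 between Laser and SePC-La and -0.18 between PC-La and SePC-La. With the replicate block, 452, 938 and 2026 genes had an unadjusted p under 0.05 in the 3 comparisons. The calls of Trp53inp1 (1.12, unadjusted p = 0.0622) and Zmat3 (0.33, unadjusted p = 0.0761) in PC-La and of Cdkn1a in SePC-La (0.59, unadjusted p = 0.0705) against Laser were lost, and Plk2 in SePC-La against Laser gained one (0.44, unadjusted p = 0.0476). Counting noise is largest for Gdf15, with 7 to 53 reads a tumor.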
